A study of Mus musculus with 16 samples.

Results

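The mouse mitochondrial genome is a small circle that carries 37 genes, and this report describes the RNA of all 37 in a kidney cell line given the antibiotic doxycycline. The genes were taken as every entry whose symbol starts with mt- in the deposited table of TPM (transcript abundance scaled by length and by library total), which lists 53354 genes. They comprised 13 protein genes for subunits of the respiratory chain, 2 ribosomal RNAs and 22 transfer RNAs. Each had its own entry in the count table under the same Ensembl identifier, and each protein gene is counted below as an mRNA.

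The cells were mIMCD3, a wild type line made from the inner medulla of the kidney of a mouse carrying a simian virus 40 transgene. All 16 libraries came from cells grown for 10 days on permeable filters. The epithelial medium, which the controls share, held serum, a growth supplement and the antibiotics gentamicin and amphotericin B. The 4 groups of 4 libraries received the vehicle DMSO or doxycycline (DOX) at 2 µg/mL, renewed daily, for 3 or 6 days: DMSO 3D, DOX 3D, DMSO 6D and DOX 6D. RNA was selected by its poly(A) tail and sequenced as 75-base paired reads, and the comparisons ask how DOX, widely used to switch on transgenes in such cells, changes their own transcripts.

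Both strands of the mitochondrial genome are transcribed as long precursors that are cut into separate RNAs, mostly at the tRNAs that lie between the other genes. The 13 mRNAs encode 7 subunits of complex I (NADH dehydrogenase), 1 of complex III (cytochrome b), 3 of complex IV (cytochrome c oxidase) and 2 of complex V (ATP synthase), and the remaining subunits come from nuclear genes. The rRNAs form the mitochondrial ribosome, which translates these mRNAs only and resembles the bacterial ribosome that tetracycline antibiotics such as DOX are known to bind. In the GENCODE annotation of GRCm38, 28 of the 37 genes, among them 12 mRNAs and both rRNAs, lie on the + strand, and *mt-Nd6* with 8 tRNAs lies on the − strand.

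Several of these genes have near-identical copies in the nuclear genome, which decides how far their counts can be read. A search of the GENCODE transcripts found 15 nuclear pseudogenes matching a mitochondrial gene over at least 200 bases at 90% identity or more, and 7 of them form one block at chr1:24611535-24616197 on the − strand with 99.7% identity or more. The pairs below are printed 5′ to 3′ to show how little separates a gene from its copy. In the first 3 pairs the copy is identical over its whole length and lacks only the last bases of the gene, given in capitals. In the other pairs a single base differs over 345 and 483 aligned bases, in capitals: T3C from *mt-Nd3* to *Gm28438* and A1066T from *mt-Co1* to *Gm29216*, counted from the first base of the mitochondrial gene.
mt-Co2, last 30 bases: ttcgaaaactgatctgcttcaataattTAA
Gm28661: ttcgaaaactgatctgcttcaataatt
mt-Atp6, last 30 bases: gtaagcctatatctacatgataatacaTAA
Gm10925: gtaagcctatatctacatgataataca
mt-Co3, last 30 bases: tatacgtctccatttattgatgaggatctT
Gm28437: tatacgtctccatttattgatgaggatct
mt-Nd3, first 18 bases: atTaacctgtacactgtt
Gm28438: atCaacctgtacactgtt
mt-Co1, bases 1063 to 1081: ggaAttgttttatccaact
Gm29216: ggaTttgttttatccaact

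The estimated counts were divided between gene and copy in unequal and unstable proportions. *Gm28661* held 70.8 to 89.2% of the counts of its pair with *mt-Co2* (median 81.6% over the 16 libraries), and *Gm10925* held 32.4 to 63.4% of its pair with *mt-Atp6*. *Gm28437* held 5.07 to 44.9% of its pair with *mt-Co3*, *Gm28438* between 0 and 36.5% with *mt-Nd3*, and *Gm29216* between 5.49 and 11.6% with *mt-Co1*. As the median of the 4 groups, the coefficient of variation between replicates was lower for the sum of a pair than for either member. For *mt-Co2* this median was 20.4% for the gene, 8.78% for the copy and 5.19% for the sum. For *mt-Co3* it was 21.7%, 54.4% and 5.90%. Within single groups the sum could vary more than the gene alone. So it was for *mt-Co1* in DMSO 3D (1.81% for the gene, 2.46% for the sum), DOX 3D and DOX 6D. The same was seen for *mt-Nd3* in DOX 3D and DMSO 6D (14.9% and 16.93% in DMSO 6D), and for *mt-Atp6* in DOX 6D. A sixth copy, *Gm13340* on chr2:22588103-22589647, took at most 0.0276% of its pair with *mt-Co1*, and the copies *Gm10222* of *mt-Nd4l* and *Gm28439* of *mt-Nd4* in the same block on chromosome 1 had no count in any library. Values for *mt-Co1*, *mt-Co2*, *mt-Co3*, *mt-Atp6* and *mt-Nd3* are therefore uncertain as deposited and are given below also with the counts of their copies added.

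**Figure D1:**
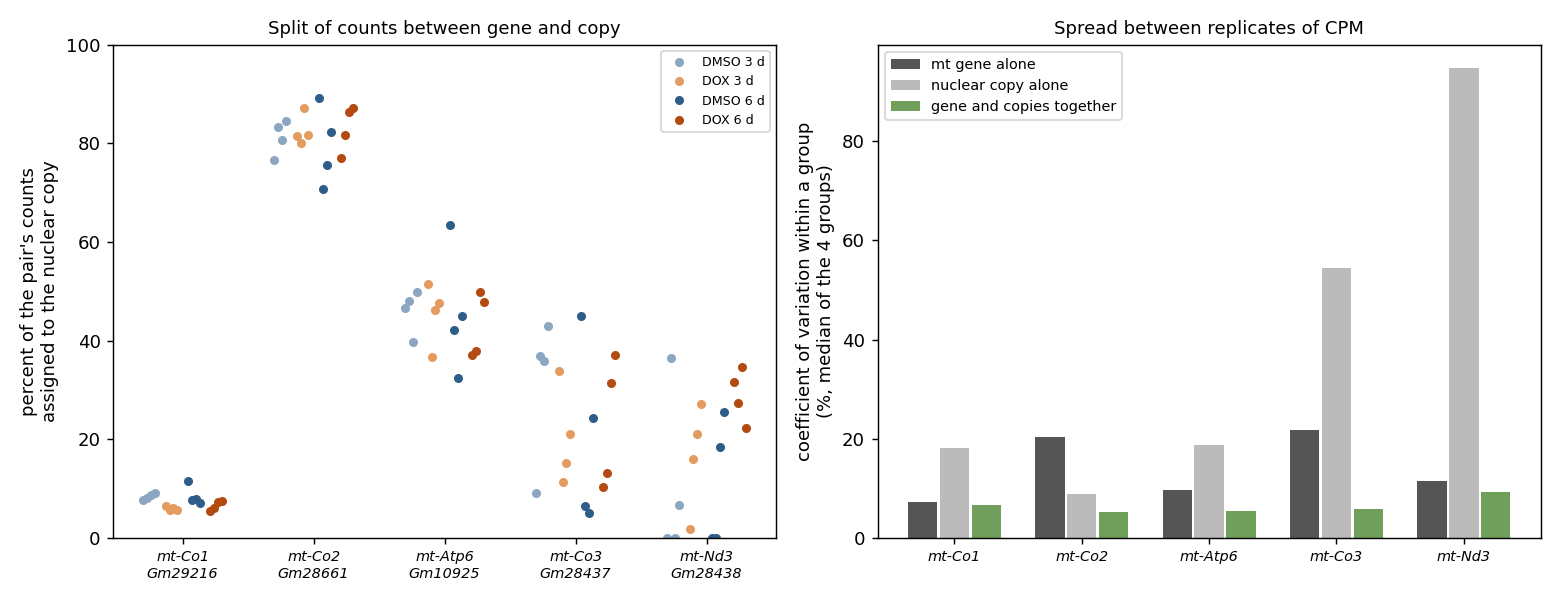
Left, percent of the summed estimated counts of a mitochondrial gene and its nuclear copy that was assigned to the copy, with 1 point per library in the 4 groups. Right, coefficient of variation in percent of CPM between the 4 replicates, as the median of the 4 groups, for gene, copy and sum: the sum has the lowest bar in all 5 pairs, for example 5.19% for *mt-Co2* against 20.4% for the gene alone.

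Sequence overlap within the mitochondrial genome limits other members. *mt-Atp8* and *mt-Atp6* share 43 bases (chrM:7927-7969), and *mt-Nd4l* and *mt-Nd4* share the 7 bases shown in capitals at the end of *mt-Nd4l* (chrM:10167-10173), so reads there cannot be assigned to either with certainty. No tRNA gene lies between the members of either pair. Whether each member has an RNA of its own was not tested, so values within a pair may not describe separate RNAs. *mt-Nd5* and *mt-Nd6* overlap by 14 bases on opposite strands. The library kit keeps strand, but the strand setting used in counting is not given in the sources used here. Of the mRNAs, 3 end on an incomplete stop codon, a lone T in capitals below for *mt-Nd4* and *mt-Cytb* and above for *mt-Co3*, which the added poly(A) tail is known to complete.
mt-Nd4l, last 30 bases: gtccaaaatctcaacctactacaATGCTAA
mt-Nd4, last 30 bases: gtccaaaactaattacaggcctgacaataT
mt-Cytb, last 30 bases: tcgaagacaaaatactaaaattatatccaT

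The libraries held 16933343 to 23960860 estimated counts each, and 3 counts, taken as the floor of detection, were 0.125 to 0.177 CPM (counts scaled to a library total of 1e6). The labels do not say whether replicates came from separate cultures, so p-values measure the spread between these samples, which may be technical. The 4 epithelial markers *Epcam*, *Cdh1*, *Krt8* and *Krt18* were at 45.5 to 955 TPM in all libraries, whereas 5 of 7 principal cell markers, *Aqp2* among them, and 3 of 3 intercalated cell markers stayed under 1 TPM, so the collecting duct label is not borne out by these markers. Markers of endothelial cells, fibroblasts and leukocytes reached at most 0.727, 1.11 and 0.381 TPM, and the proximal tubule marker *Slc34a1* up to 17.2 TPM. Replicate 1 of DMSO 6D had the lowest mitochondrial share of its group: 1.29% of its counts, against 1.66 to 1.78% in the other DMSO 6D libraries. With the nuclear copies added its share was 1.84%, against 2.02 to 2.27%. Some results below are given also without this library, and the others include it.

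In the 8 DMSO libraries the complex IV mRNAs *mt-Co1* and *mt-Co2* were highest once their copies were added. On the scale of CPM per kilobase with the copies added, *mt-Co1* was at 4797 ± 218 (SD, n = 8), *mt-Co2* at 4506 ± 256, *mt-Atp6* at 3258 ± 202 and *mt-Co3* at 2529 ± 121, and each was above the next in all 8 libraries. *mt-Nd1* followed at 1002 ± 111 and was above *mt-Cytb*, at 778 ± 79.9, in all 8. From *mt-Cytb* through *mt-Atp8* (696 ± 164), *mt-Nd4* (656 ± 98.3), *mt-Rnr1* (612 ± 65.5), *mt-Nd2* (605 ± 70.6) and *mt-Rnr2* (602 ± 78.9), neighbours in the order lay within their spread. *mt-Nd4l* (336 ± 39.8), *mt-Nd5* (300.2 ± 36.6) and *mt-Nd3* (290.7 ± 36.9) were lower, and *mt-Nd6*, the mRNA of the − strand, was lowest at 52.0 ± 15.6. The deposited TPM gave another order for short genes and for those with copies: *mt-Atp8* ranked 2, *mt-Co2* ranked 5 and *mt-Nd4l* ranked 7 of 15. On that scale *mt-Nd4l* was at 1111 ± 154 TPM and *mt-Nd4* at 891 ± 143 TPM, the reverse of their order per kilobase. CPM per kilobase divides by the full gene length, so the place of short genes depends on the scale. The rRNAs are not comparable with the mRNAs here, since selection by poly(A) tails acts on RNAs with short tails to an extent these data do not show. Tail lengths were not measured, so the levels of different mRNAs, *mt-Nd6* among them, carry the same limit.

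DOX raised a large part of the mitochondrial mRNAs and both rRNAs, but not all to the same extent. Of the 37 genes, 15 (13 mRNAs and 2 rRNAs) had at least 1 CPM in 4 or more libraries and were tested, with edgeR's quasi-likelihood test against a fold threshold of 1.2 and Benjamini-Hochberg adjustment over 13234 genes; a gene is called changed at an adjusted p under 0.05. At 3 days 7 of the 15 changed, 6 higher and 1 lower (*mt-Co1*), where 12.5% of all tested genes changed (5.3% higher and 7.22% lower). At 6 days 10 of the 15 changed, all higher, where 21.6% of all tested genes changed and 10% were higher. The median log2 fold change of the 15 was 0.34 at 3 days and 0.87 at 6 days (0.68 without replicate 1 of DMSO 6D), beside a median of 0.00 over all tested genes at 3 days. With the copies added, the counts were 7 at 3 days (6 higher and 1 lower, where 5.31% of all tested genes were higher and 7.23% lower) and 11 higher at 6 days (10% of all), the added gene being *mt-Co3*. The CPM of the DOX and DMSO groups did not overlap for 8 genes at 3 days and 11 at 6 days, where 38.6% and 43% of all tested genes did not overlap. In bulk RNA, more cells rich in a transcript and more of it per cell cannot be told apart.

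**Figure D2:**
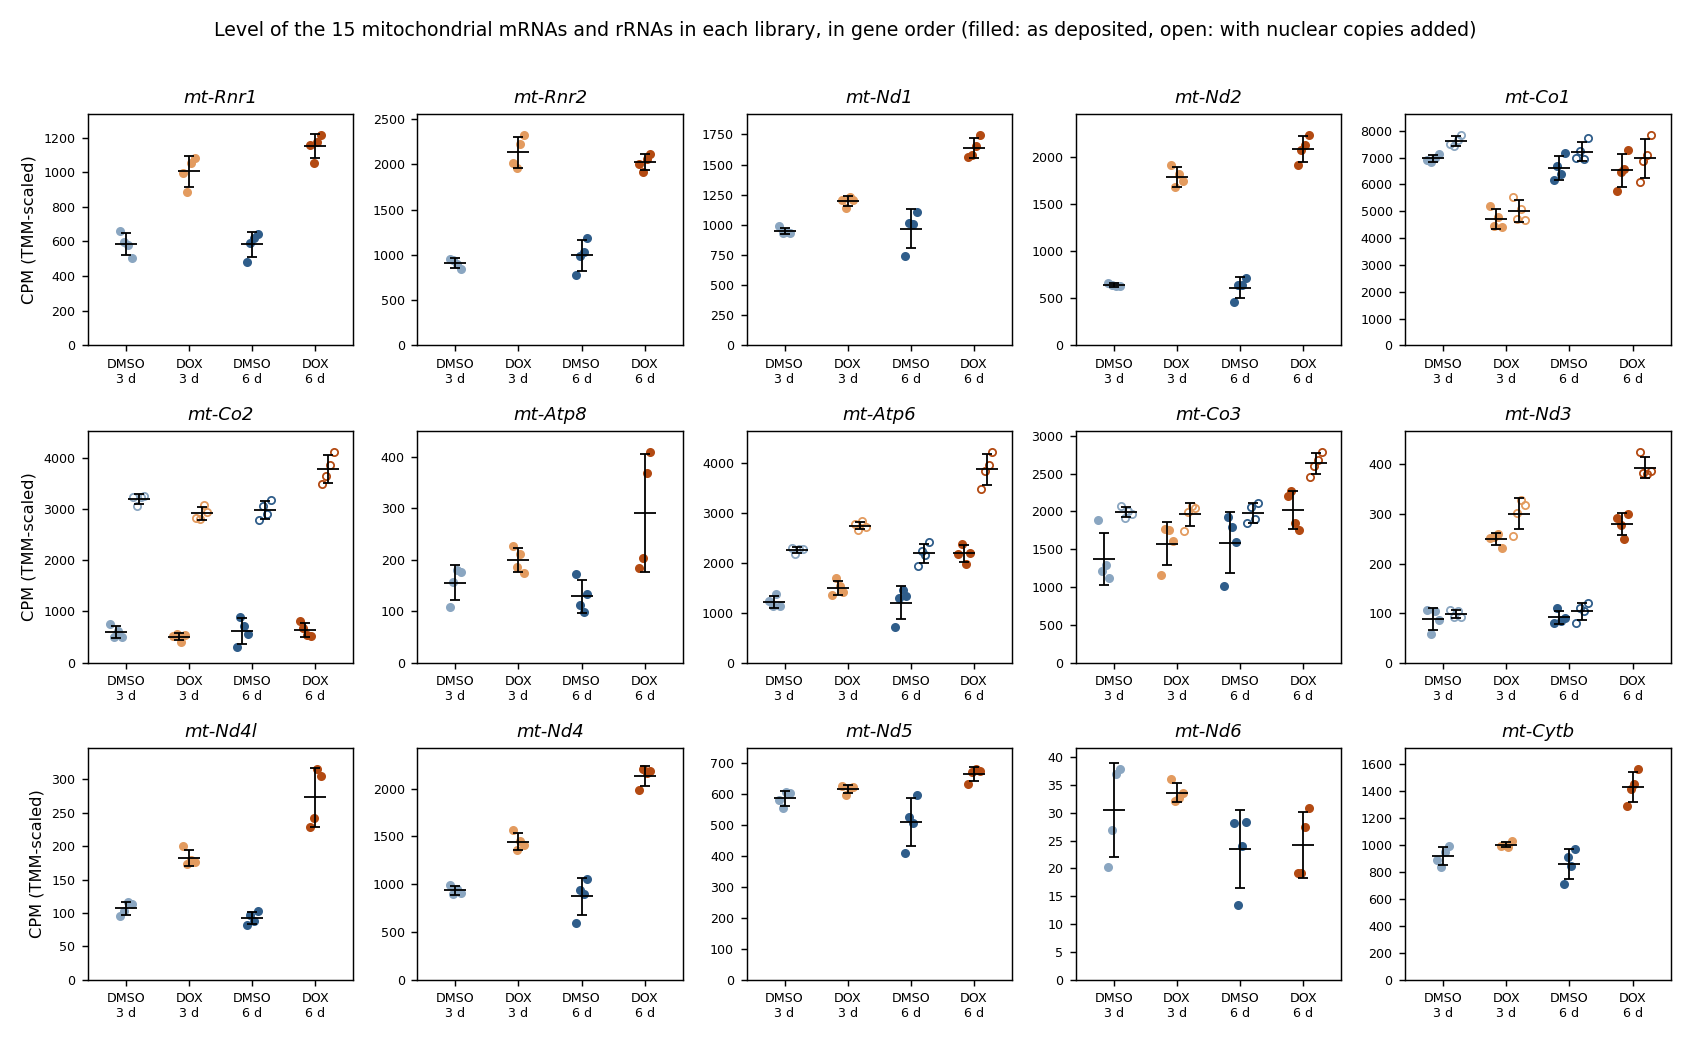
CPM (scaled by the trimmed mean of M-values, TMM) of the 15 mitochondrial mRNAs and rRNAs in gene order, 1 point per library, with bars at the mean ± SD of 4 libraries per group and open points for values with nuclear copies added. DOX and DMSO points lie well apart for *mt-Nd2* and *mt-Nd3* at both times, *mt-Co1* is lower with DOX at 3 days only, and *mt-Nd6* shows no separation.

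The rRNA genes *mt-Rnr1* (12S, chrM:70-1024) and *mt-Rnr2* (16S, chrM:1094-2675) rose at both times. *mt-Rnr1* was at 661, 596, 578 and 506 CPM in DMSO 3D and at 997, 885, 1055 and 1084 in DOX 3D, and at 483, 590, 622 and 643 in DMSO 6D and 1156, 1052, 1174 and 1217 in DOX 6D. The groups did not overlap at either time, with log2 fold changes of 0.78 (SE 0.0927, edgeR adjusted p = 5.04e-05) and 0.98 (SE 0.0929, adjusted p = 5.23e-07). *mt-Rnr2* was at 953, 948, 901 and 840 CPM in DMSO 3D and 2014, 1962, 2220 and 2328 in DOX 3D, and at 777, 987, 1028 and 1189 in DMSO 6D and 2006, 1917, 2056 and 2117 in DOX 6D. It rose by 1.23 on the log2 scale at 3 days (SE 0.0979, edgeR adjusted p = 6.18e-08) and by 1.02 at 6 days (SE 0.0974, adjusted p = 4.81e-07), and every DOX library lay above every DMSO library. The log2 ratio of the summed rRNA to the summed mRNA counts averaged −3.29 in DMSO 3D and −2.26 in DOX 3D, a difference of 1.03, and −3.17 and −2.67 at 6 days, a difference of 0.50, with no overlap at either time. On the TPM scale these differences were 0.749 and 0.271.

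Among the 7 complex I mRNAs, *mt-Nd2* (chrM:3914-4951) and *mt-Nd3* (chrM:9459-9806), which encode membrane subunits ND2 and ND3, changed most. *mt-Nd2* was at 667, 643, 627 and 627 CPM in DMSO 3D and 1921, 1681, 1819 and 1744 in DOX 3D, and at 462, 644, 639 and 717 in DMSO 6D and 1916, 2079, 2128 and 2242 in DOX 6D. The lowest DOX library was more than double the highest DMSO library at each time, and the rise was 2.80-fold at 3 days (log2 fold change 1.48, SE 0.0982, edgeR adjusted p = 2.71e-09) and 3.40-fold at 6 days (1.76, SE 0.0990, adjusted p = 4.4e-11). *mt-Nd3* as deposited was at 107, 58.7, 104 and 85.6 CPM in DMSO 3D and 252, 253, 259 and 232 in DOX 3D, and at 79.5, 110.5, 84.5 and 90.1 in DMSO 6D and 292, 278, 249 and 301 in DOX 6D. Its log2 fold changes were 1.49 (SE 0.152, edgeR adjusted p = 1.56e-05) and 1.62 (SE 0.152, adjusted p = 2.23e-06), and with *Gm28438* added 1.61 (SE 0.1002, adjusted p = 2.07e-09) and 1.92 (SE 0.101, adjusted p = 4.12e-11). Adding the copy made the rise larger and its error smaller, and the groups stayed apart either way.

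The neighbours *mt-Nd4l* (chrM:9877-10173) and *mt-Nd4* (chrM:10167-11544), which also encode membrane subunits of complex I, rose at 3 days and rose further by 6 days. *mt-Nd4l* was at 95.1, 104, 117 and 113 CPM in DMSO 3D, 200.1, 174, 179 and 177 in DOX 3D, 81.4, 96.7, 88.7 and 103 in DMSO 6D, and 229, 243, 316 and 306 in DOX 6D. *mt-Nd4* was at 995, 893, 946 and 911 CPM in DMSO 3D, 1564, 1356, 1450.0 and 1414 in DOX 3D, 596, 941, 903 and 1052 in DMSO 6D, and 1984, 2206, 2162 and 2183 in DOX 6D. For both genes all DOX libraries lay above all DMSO libraries of the same day. The log2 fold changes of *mt-Nd4l* were 0.77 (SE 0.0973, edgeR adjusted p = 0.000142) and 1.56 (SE 0.0985, adjusted p = 8.99e-10), and those of *mt-Nd4* 0.63 (SE 0.113, adjusted p = 0.00596) and 1.29 (SE 0.115, adjusted p = 9.91e-08). Tested as log2(TPM + 1) with limma, neither passed at 3 days (0.56, adjusted p = 0.174 for *mt-Nd4l* and 0.44, adjusted p = 0.653 for *mt-Nd4*).

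*mt-Nd1* (chrM:2751-3707) passed the test at 6 days and not at 3 days, although its groups did not overlap at either time. It was at 987, 933, 937 and 935 CPM in DMSO 3D and 1210.0, 1143, 1235 and 1206 in DOX 3D, a log2 difference of 0.34 (SE 0.0891, edgeR adjusted p = 0.308, and 0.00406 without the fold threshold). At 6 days the values were 742, 1017, 1010.0 and 1110.0 in DMSO and 1566, 1583, 1658 and 1749 in DOX, a rise of 0.76 (SE 0.0895, adjusted p = 2.28e-05). *mt-Nd5* (chrM:11742-13565), the longest of the mRNAs, was at 580, 555, 607 and 602 CPM in DMSO 3D and 625, 596, 618 and 622 in DOX 3D, which overlap (0.07, adjusted p = 1.0). At 6 days it was at 410, 525, 506 and 596 in DMSO and 631, 672, 680 and 675 in DOX, with no overlap and a log2 difference of 0.38 (SE 0.0797, edgeR adjusted p = 0.0867) that did not pass and fell to 0.29 without replicate 1 of DMSO 6D. By edgeR *mt-Nd5* passed without replicate 4 of DMSO 6D (0.47, adjusted p = 0.00968) and with a length and GC offset (0.55, adjusted p = 0.000953). It also passed with no filter (0.42, adjusted p = 0.0363) and without the fold threshold (adjusted p = 0.000402). Including *mt-Nd6*, described with the strands below, 4 of the 7 complex I mRNAs changed at 3 days and 5 of 7 at 6 days, all higher.

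*mt-Cytb* (chrM:14145-15288) encodes cytochrome b, the only complex III subunit made in mitochondria. Its libraries overlapped at 3 days, at 893, 840.0, 949 and 995 CPM with DMSO and 991, 1003, 990.0 and 1029 with DOX (log2 fold change 0.13, edgeR adjusted p = 1.0). At 6 days they did not, at 711, 914, 845 and 973 with DMSO and 1293, 1415, 1452 and 1566 with DOX, a rise of 0.73 (SE 0.0855, adjusted p = 2.38e-05).

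The complex IV mRNAs, which encode the catalytic core of cytochrome c oxidase, did not pass the test as deposited except for *mt-Co1*, which fell at 3 days. *mt-Co1* (chrM:5328-6872), the mRNA with the highest count, was at 6913, 6832, 6988 and 7127 CPM in DMSO 3D and 5187, 4438, 4771 and 4415 in DOX 3D, and every DOX library lay below every DMSO library. It fell by 0.57 on the log2 scale (SE 0.0863, edgeR adjusted p = 0.00315), and by 0.60 with *Gm29216* and *Gm13340* added (SE 0.0874, adjusted p = 0.00144). At 6 days the groups overlapped, at 6174, 6688, 6381 and 7175 with DMSO and 5748, 6475, 6578 and 7269 with DOX (−0.02, SE 0.0860, adjusted p = 1.0). *Gm29216*, scored as a gene of its own, fell by 1.09 at 3 days (SE 0.175, adjusted p = 0.00132).

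*mt-Co2* (chrM:7013-7696) as deposited ranged from 301 to 893 CPM within DMSO 6D, and its log2 fold changes of −0.25 and 0.04 had SEs of 0.275 each (edgeR adjusted p = 0.929 and 1.0). With *Gm28661* added it was at 3224, 3050.0, 3232 and 3258 CPM in DMSO 3D and 2824, 2795, 3080.0 and 2936 in DOX 3D, and at 2774, 3053, 2893 and 3175 in DMSO 6D and 3480.0, 3643, 3855 and 4111 in DOX 6D. The groups then overlapped at 3 days (−0.13, SE 0.0738, edgeR adjusted p = 1.0) and were apart at 6 days, where the difference of 0.34 did not pass the test (SE 0.0739, adjusted p = 0.174). *mt-Co3* (chrM:8607-9390) did not pass as deposited, at 0.19 (adjusted p = 0.951) and 0.35 (SE 0.206, adjusted p = 0.491). With *Gm28437* added it was at 2067, 1909, 2010.0 and 1964 CPM in DMSO 3D, 1739, 1986, 2069 and 2041 in DOX 3D, 1844, 2059, 1895 and 2112 in DMSO 6D, and 2454, 2605, 2685 and 2787 in DOX 6D. It overlapped at 3 days (−0.02) and rose by 0.41 at 6 days (SE 0.0739, edgeR adjusted p = 0.0350), or by 0.38 without replicate 1 of DMSO 6D (adjusted p = 0.0817). The call on *mt-Co3* thus depends on how its copy is counted and on that library.

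Both complex V mRNAs, which encode subunits a and A6L of ATP synthase and overlap each other, passed the test at 6 days and not at 3 days. *mt-Atp6* (chrM:7927-8607) with *Gm10925* added was at 2297, 2172, 2279 and 2264 CPM in DMSO 3D, 2772, 2657, 2833 and 2707 in DOX 3D, 1938, 2232, 2159 and 2409 in DMSO 6D, and 3464, 3827, 3949 and 4218 in DOX 6D. The groups were apart at both times, but the log2 difference of 0.28 at 3 days did not pass (SE 0.0773, edgeR adjusted p = 0.542), whereas it rose by 0.82 at 6 days (SE 0.0777, adjusted p = 8.78e-07). As deposited its differences were 0.30 (SE 0.155, adjusted p = 0.585) and 0.87 (SE 0.156, adjusted p = 0.00154), and the latter was at adjusted p = 0.0519 by limma on TPM. *mt-Atp8* (chrM:7766-7969), the shortest mRNA, was at 172, 113, 97.6 and 133 CPM in DMSO 6D and 183, 203, 368 and 409 in DOX 6D. Its rise of 1.18 (SE 0.275, edgeR adjusted p = 0.0111) came with a wide spread and was at adjusted p = 0.0880 by limma on TPM and 0.0698 in a fit of the 8 libraries of 6 days alone. At 3 days *mt-Atp8* overlapped (0.35, adjusted p = 0.715).

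**Figure D3:**
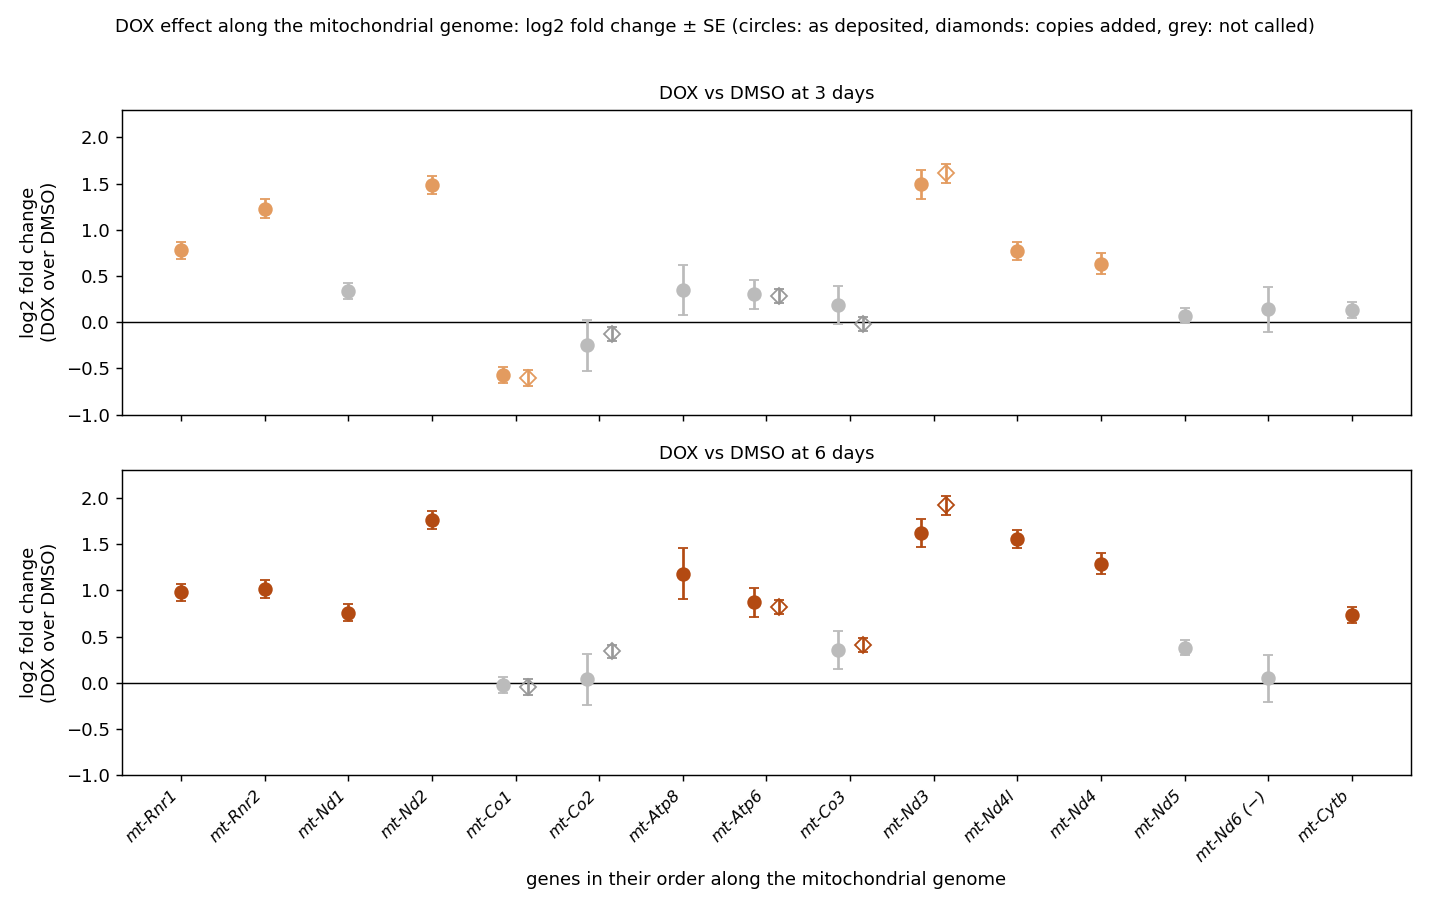
Log2 fold change (DOX over DMSO) ± SE at 3 days (top) and 6 days (bottom) for the 15 tested genes in their order along the genome, with circles for counts as deposited, diamonds with nuclear copies added, and grey for genes not called. Values at 6 days run from −0.02 (*mt-Co1*) to 1.76 (*mt-Nd2*) as deposited, with high and low genes next to each other along the genome.

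The − strand mRNA, *mt-Nd6* (chrM:13552-14070), a complex I subunit, did not pass any test. It was at 20.2, 26.8, 36.96 and 37.9 CPM in DMSO 3D and 36.1, 32.1, 32.8 and 33.5 in DOX 3D, and at 28.2, 13.4, 24.1 and 28.3 in DMSO 6D and 19.3, 19.1, 27.5 and 30.9 in DOX 6D. The groups overlapped at both times, with log2 fold changes of 0.14 (SE 0.246) and 0.05 (SE 0.254), both at an edgeR adjusted p of 1.0. The strands were compared by the log2 ratio of *mt-Nd6* to the summed 12 mRNAs of the + strand, which does not depend on library size. Of the mitochondrial mRNA and rRNA counts as deposited, *mt-Co1* made up 39.4 to 48.5% in DMSO and 24.5 to 29.6% in DOX libraries. It therefore weighs most in that sum. Poly(A) selection can affect this ratio if tails differ between these mRNAs, which was not tested. The ratio averaged −8.94 ± 0.452 (SD, n = 4) in DMSO 3D and −8.80 ± 0.0692 in DOX 3D, a difference of 0.14 (two-sided exact permutation p = 0.686). It averaged −9.28 ± 0.622 in DMSO 6D and −9.73 ± 0.319 in DOX 6D, a difference of −0.45 (exact permutation p = 0.229, where 0.0286 is the smallest p that 4 against 4 libraries allow). With the copies added the differences were 0.19 at 3 days (exact permutation p = 0.457) and −0.43 at 6 days (exact permutation p = 0.2). The spread of *mt-Nd6* in the DMSO groups, from 13.4 to 37.9 CPM, leaves a difference between strands of this size within the replicate error, and the sign at 3 days turned under TPM (−0.08).

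The 22 tRNA genes were close to absent. In the 16 libraries together they held 107 estimated counts, between 2 and 14 per library, and 6 had none in any library. At least 3 counts in any library were reached by 5 tRNAs, with a maximum of 7, so none was tested. The tRNA genes are 59 to 75 bases long, no longer than a read, and mature tRNAs carry no poly(A) tail. Of the 107 counts, 59 fell on + strand tRNAs and 48 on the 8 of the − strand.

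As a share of the mitochondrial mRNA and rRNA counts, complex IV was lower under DOX, and complexes I and V and the rRNAs were higher. With the copies added, complex IV mRNAs made up 60.4 to 61.7% of the mitochondrial mRNA and rRNA counts in DMSO 3D and 42.9 to 44.2% in DOX 3D, and 58.9 to 64.2% and 44.7 to 46.3% at 6 days. Complex I mRNAs made up 15.7 to 16.3% in DMSO 3D and 24.4 to 25.4% in DOX 3D, and 13.3 to 16.9% and 23.8 to 25.2% at 6 days. The ranges of DOX and DMSO did not overlap for either complex. Complex V was also apart, at 11.4 to 11.6% in DMSO 3D and 12.8 to 13.2% in DOX 3D. At 6 days it was at 11.4 to 11.7% in DMSO and 13.6 to 14.5% in DOX. The rRNAs went from 6.36 to 7.63% to 13.1 to 15.2% at 3 days, and from 6.96 to 8.36% to 10.3 to 11.8% at 6 days. Complex III overlapped at 3 days and was at 3.93 to 4.45% in DMSO 6D and 4.81 to 4.92% in DOX 6D. *mt-Nd2* alone went from 2.96 to 3.16% in DMSO 3D to 7.76 to 8.38% in DOX 3D, and *mt-Co1* from 35.4 to 37.1% to 20.8 to 24.2%. The log2 ratio of complex IV to complex I mRNAs with the copies added averaged 1.93 ± 0.0364 (SD, n = 4) in DMSO 3D and 0.826 ± 0.0269 in DOX 3D, and 1.95 ± 0.218 and 0.888 ± 0.0560 at 6 days. Between the groups it dropped by 1.11 at 3 days and by 1.06 at 6 days. These shares and ratios are sums over the members and carry no test. A lower share need not be a lower level. At 6 days the complex IV mRNAs, with copies added, had log2 fold changes of −0.05 to 0.41. None of them was called lower.

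**Figure D4:**
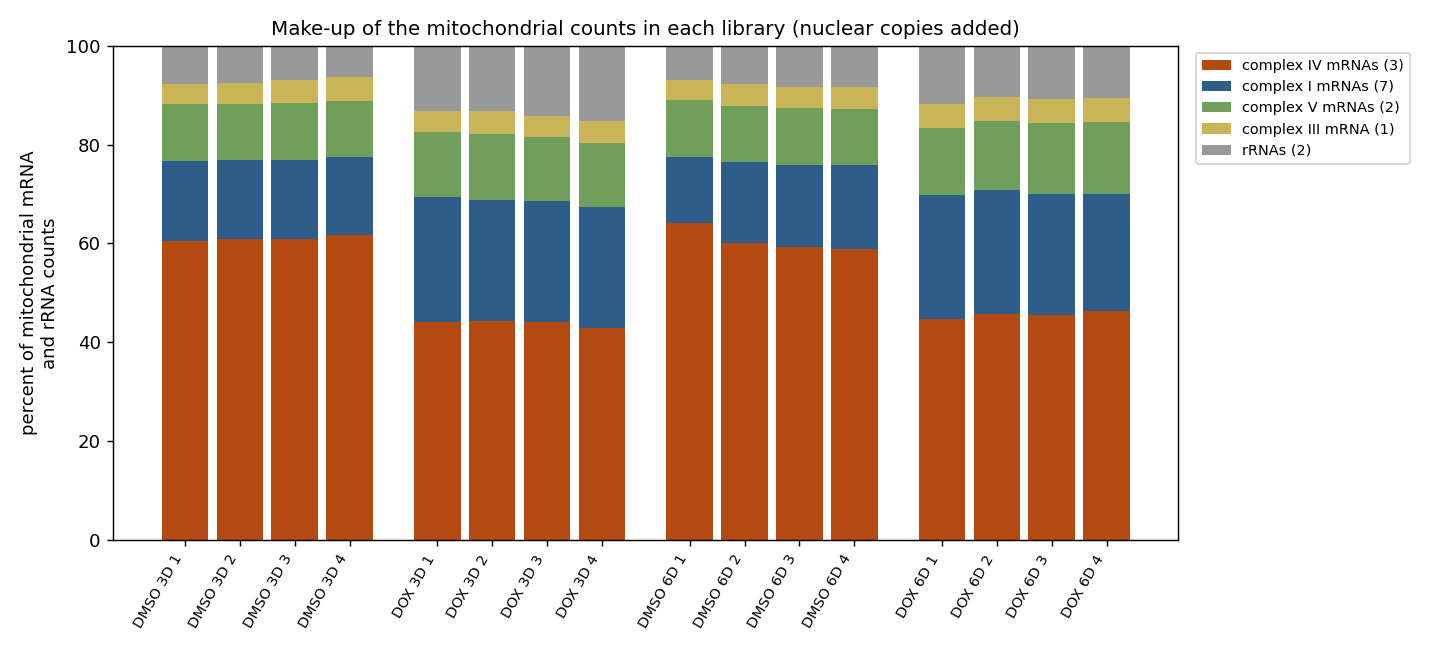
Share in percent of each library's mitochondrial mRNA and rRNA counts, with nuclear copies added, that fell to complex IV, I, V and III mRNAs and to rRNAs, 1 bar per library. Complex IV is at 58.9 to 64.2% in the 8 DMSO bars and 42.9 to 46.3% in the 8 DOX bars.

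The mitochondrial share of all counts differed less between the groups at 3 days than at 6 days. It was 1.63, 1.55, 1.64 and 1.64% in DMSO 3D and 1.83, 1.68, 1.77 and 1.72% in DOX 3D, which do not overlap but differ by 0.137 percentage points in the mean. At 6 days it was 1.29, 1.69, 1.66 and 1.78% in DMSO and 2.20, 2.40, 2.36 and 2.51% in DOX, a difference of 0.763 points (0.660 without replicate 1 of DMSO 6D). With the copies added the groups overlapped at 3 days (difference 0.0688 points) and were apart at 6 days (0.929 points).

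The fold changes were compared with position along the genome: over the 12 + strand mRNAs, Spearman's rho of the log2 fold change with position was 0.00699 at 3 days and 0.0629 at 6 days, and with the 2 rRNAs −0.266 and −0.00659. The same fold changes had rho of −0.482 and −0.406 with gene length, −0.524 and −0.538 with GC content and −0.510 and −0.545 with the CPM in DMSO (−0.755 and −0.706 with the copies added), which is itself part of the fold change. These are descriptions across 12 or 14 genes of the same libraries, which are not independent replicates. *mt-Nd2* and *mt-Co1* are the clearest case of unequal neighbours, since in gene order they are consecutive mRNAs and moved in opposite directions at 3 days.

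With time alone, in DMSO, none of the 15 genes differed between 6 and 3 days by edgeR (0 at an unadjusted p under 0.05, and 0 by DESeq2 and by limma), and 0% of all tested genes did. Under DOX, *mt-Cytb* (log2 fold change 0.51, adjusted p = 0.0278), *mt-Nd4* (0.56, adjusted p = 0.0458) and *mt-Nd4l* (0.58, adjusted p = 0.0152) were higher at 6 than at 3 days, where 3.94% of all tested genes changed and 1.37% were higher. This count of 3 was 0 by DESeq2 and by limma, 0 without replicate 2 of DOX 3D or replicate 3 or 4 of DOX 6D, 1 without replicate 3 or 4 of DOX 3D or replicate 2 of DOX 6D, and 5 without replicate 1 of DMSO 6D. The DOX effect itself was larger at 6 than at 3 days for 5 genes by the test of the difference (edgeR, no fold threshold), where 17% of all tested genes passed and 7.44% had a higher effect at 6 days. With the 1.2-fold threshold of the other comparisons 1 of them passed (*mt-Nd4l*), and with a length and GC offset 9 genes passed. The log2 differences between the effects were 0.79 for *mt-Nd4l* (SE 0.137, adjusted p = 0.00129), 0.66 for *mt-Nd4* (SE 0.160, adjusted p = 0.0089), 0.61 for *mt-Cytb* (SE 0.1204, adjusted p = 0.00285), 0.55 for *mt-Co1* (SE 0.122, adjusted p = 0.00572) and 0.42 for *mt-Nd1* (SE 0.126, adjusted p = 0.0266), the last of which did not pass without replicate 2 of DOX 3D or replicate 3 or 4 of DOX 6D. With the copies added, *mt-Co2* (0.48), *mt-Co3* (0.43) and *mt-Atp6* (0.54) joined them, which made 8 (7.48% of all tested genes). *mt-Nd2*, *mt-Nd3* and the rRNAs, which had already risen at 3 days, differed between the times by 0.28, 0.12, 0.20 and −0.20 and did not pass.

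Nuclear genes that make or handle mitochondrial RNA moved less. Of 45 genes for mitochondrial transcription, DNA upkeep and RNA processing, all tested, 5 rose at 3 days and 7 at 6 days and none fell, where 5.3% and 10% of all tested genes rose, with a median log2 fold change of 0.26 and 0.12. The 5 at 3 days were *Tfb1m* (0.64), *Ssbp1* (0.52), *Pnpt1* (0.50), *Tefm* (0.44) and *Top1mt* (0.42); this count was 12 without replicate 1 of DOX 3D, and 3 without replicate 1 or 2 of DMSO 3D or replicate 2 or 4 of DOX 3D. DESeq2 called 3 and 4 of the 45 at the 2 times, and limma on TPM called none. At 6 days the largest rises were those of *Top1mt*, a mitochondrial topoisomerase (0.59, edgeR adjusted p = 0.000179), *Mrm1*, an rRNA methyltransferase (0.55, adjusted p = 0.0057), *Pnpt1*, an RNA-degrading enzyme (0.50, adjusted p = 0.000402), and *Twnk*, the DNA helicase (0.49, adjusted p = 0.00605). *Lrpprc*, which stabilises mitochondrial mRNAs, was at 0.34 at 3 days (adjusted p = 0.219) and rose by 0.48 at 6 days (adjusted p = 0.00453). Its partner *Slirp* was at 0.38 (adjusted p = 0.184) and −0.11 (adjusted p = 1.0). Under DOX *Slirp* was lower at 6 than at 3 days (−0.73, edgeR adjusted p = 0.000861). *Polrmt*, the mitochondrial RNA polymerase, was at −0.11 and 0.26 (adjusted p = 1.0 and 0.584), and *Tfam*, the packaging and transcription factor, at 0.17 and −0.11 (adjusted p = 1.0 at both times). Of the 45, the DOX effect was higher at 6 than at 3 days for 4 and lower for 3 (7.44% and 9.58% of all tested genes). Among these were *Twnk* (0.48, edgeR adjusted p = 0.00718), *Polrmt* (0.37, adjusted p = 0.0204) and *Slirp* (−0.49, adjusted p = 0.0161).

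The nuclear-encoded partners of the mitochondrial subunits moved otherwise. Of 72 tested mRNAs for nuclear subunits of complexes I, III, IV and V, none changed at 3 days by edgeR (5 at an unadjusted p under 0.05, 0 by DESeq2 and by limma), although 64 had a log2 fold change above 0 and their median was 0.22. Without the fold threshold 41 passed, 40 of them higher, and without replicate 1 of DOX 3D 7 passed with it. At 6 days 16 fell and none rose, where 11.6% of all tested genes fell, 58 of 72 were below 0 and the median was −0.18. The count was 9 by DESeq2, 19 by limma on TPM and 10 without replicate 2 of DOX 6D. By complex, 4 of 36 fell for complex I, 2 of 9 for III, 6 of 11 for IV and 4 of 16 for V. The largest fall in each complex was in *Ndufb3* (complex I, −0.56, edgeR adjusted p = 0.00254), *Uqcrh* (complex III, −0.71, adjusted p = 6.85e-05), *Cox7b* (complex IV, −0.60, adjusted p = 0.00196) or *Atp5g3* (complex V, −0.64, adjusted p = 0.00073). *Cox7b* was at 85.7, 88.5, 84.9 and 85.7 CPM in DMSO 6D and 67.2, 55.0, 53.8 and 51.3 in DOX 6D, while *mt-Nd2* on the same days more than doubled. The DOX effect differed between the times for 46 of the 72, all lower at 6 days, where 9.58% of all tested genes had a lower effect.

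**Figure D5:**
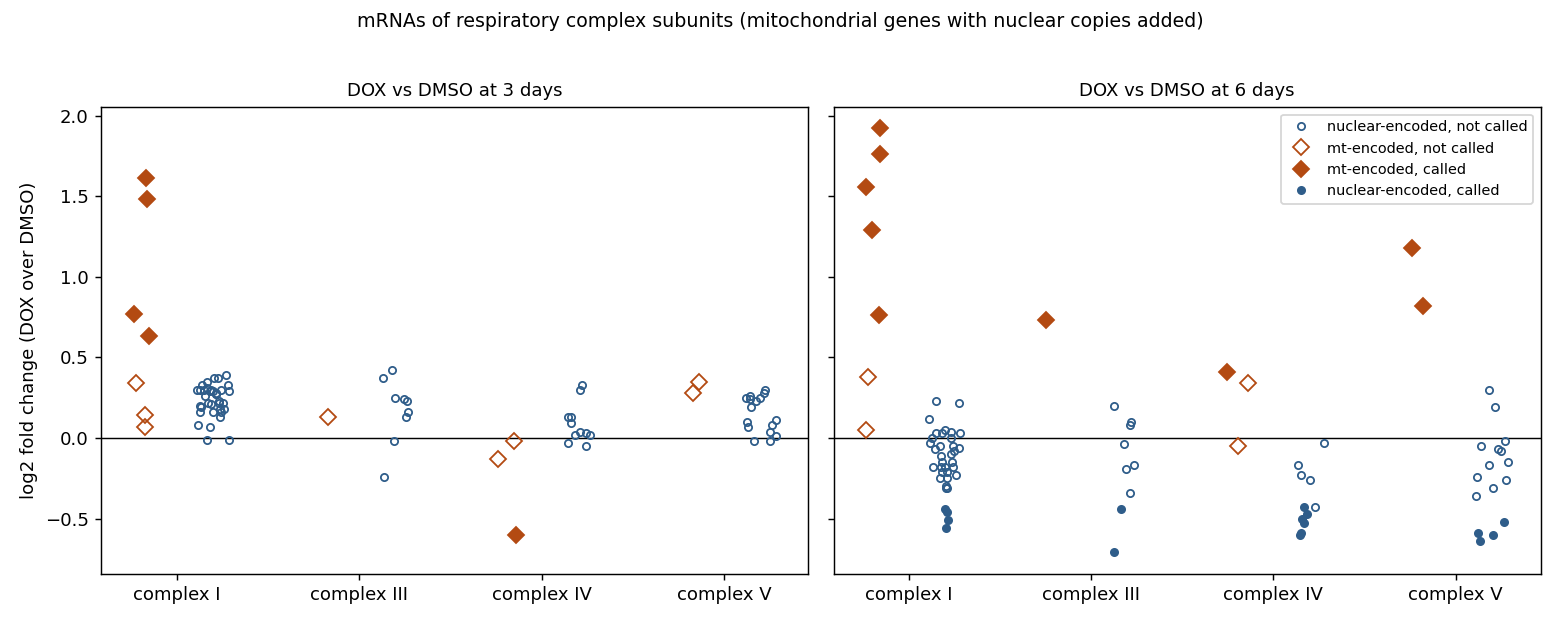
Log2 fold change (DOX over DMSO) of every tested mRNA for a subunit of respiratory complexes I, III, IV and V at 3 days (left) and 6 days (right), with diamonds for mitochondrial genes (copies added), circles for nuclear genes and filled symbols for genes that passed the test. At 6 days all 16 filled nuclear circles lie below 0 and all filled diamonds above it.

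RNAs listed as lacking a poly(A) tail, called untailed here, were measured as a possible sign of untailed RNA passing the selection. Whether each listed RNA, histone mRNAs among them, lacked a tail in these cells was not tested. The level of these RNAs also depends on how much of each the cells made, so it does not measure the selection alone. The summed level was 65.8 to 73.5 CPM in DMSO 3D, 57.4 to 74.9 in DOX 3D, 59.8 to 71.0 in DMSO 6D and 44.5 to 50.8 in DOX 6D, and 181 of the 303 genes were at 0 in every library. Of the 11 tested, whose median log2 fold change was 0.39 at 3 days and −0.23 at 6 days, *Hist1h1c* and *Hist1h2bc* fell at 3 days, and both of these with *Hist1h4i*, *Rn7sk* and *Gm26870* fell at 6 days, while none rose, where 7.22% and 11.6% of all tested genes fell. At 3 days *Rn7s1*, *Rn7sk*, *Snora43*, *Snora57*, *Snord104* and *Snord72* were at 0.39 to 0.59 and did not pass (edgeR adjusted p = 0.125 to 0.531). *Snora17* (−0.03), *Hist1h4i* (−0.48) and *Gm26870* (−0.88) did not pass at 3 days either. At 6 days *Rn7s1*, *Snora17*, *Snora43*, *Snora57*, *Snord104* and *Snord72* were at −0.23 to 0.23 and did not pass. The median of the 15 mitochondrial genes was 0.34 at 3 days and 0.87 at 6 days. Without the fold threshold 7 of the 11 untailed RNAs passed at 3 days, 4 of them higher. The count of 2 at 3 days was 1 without any of replicates 1, 2 and 3 of DMSO 3D, replicate 3 of DOX 3D, or replicates 2 and 3 of DMSO 6D and of DOX 6D, and 3 without replicate 1 of DOX 3D (2 of them higher) or of DMSO 6D (0 higher). The part of poly(A) selection in the rise of the mitochondrial rRNAs and mRNAs was not tested.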

How the data were processed

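The authors aligned 75-base paired reads of poly(A)-selected, strand-keeping libraries with STAR on mouse build GRCm38.p6, and Salmon is the quantifier per the submitters' processing notes; the annotation release and the strand setting are not given in the sources used here. The deposited tables hold estimated counts for 54393 genes and TPM for 53354 genes in 16 libraries. TPM is the authors' value scaled by length and library total, and counts are not normalized.

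The estimated counts were rounded. The 13234 genes that reached 1 CPM in 4 or more libraries were fitted in R 4.3.3 with edgeR 4.0.16 (TMM, robust quasi-likelihood, 4 group means over 16 libraries) and tested two-sided with glmTreat against a fold of 1.2. The difference between the DOX effects at 6 and 3 days was tested without a threshold. P-values were adjusted by Benjamini-Hochberg over all tested genes, and SE is the log2 fold change divided by the root of F. CPM are scaled by TMM. All 13 mitochondrial mRNAs and 2 rRNAs are named; tRNAs are given as counts. Of the nuclear lists, the named genes are the largest called rises and falls at 6 days (up to 4 each, or 1 per complex) plus *Polrmt*, *Tfam*, *Lrpprc* and *Slirp*; others named beside a count of 5 or fewer, and *Cox7b* levels, were chosen after their values were seen. The members and lists were chosen with earlier results of these data known.

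Positions and sequences come from GENCODE M21 (GRCm38). Nuclear copies were found with blastn 2.17.0 and added to their gene in a second fit of 13228 genes. The *mt-Nd6* ratio was tested with a two-sided exact permutation test over 70 arrangements. Alternatives were other normalizations and filters, DESeq2 1.42.0, limma 3.58.1 on log2(TPM + 1), a length and GC offset, a replicate block and leaving out each library. The copies combined with the block, with nuclear library sizes or without replicate 1 of DMSO 6D, and DESeq2 and limma counts for the nuclear lists, were added after seeing the data. On simulated counts (13076 genes tested) edgeR recovered 53.8% of genes changed 1.5-fold and 84.8% of those changed 2-fold at 3 days, and 56.9% and 89.6% at 6 days. For the difference between the effects it recovered 64.6% and 84.5%, and 12 of 327 calls were false. The simulation changed fewer genes than DOX did here and did not split counts between gene and copy. It therefore does not give the recovery for the mitochondrial genes. Counting floors and intervals cover counting error only.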

Additional observations from a re-analysis of the deposited data

Results flagged for a closer look

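Within groups of 4 libraries, 96 sets of values were checked for a library far from the other 3, and 4 stood out, where chance gives about 5% of sets. *mt-Nd1* was at 987.1 CPM in replicate 1 of DMSO 3D, above the next library at 937.3 CPM. *mt-Co2* with its copies added was at 3050.0 CPM in replicate 2 of DMSO 3D, below the next at 3224 CPM. *mt-Nd3* with its copy added was at 425.5 CPM in replicate 1 of DOX 6D, above the next at 387.1 CPM. The mitochondrial share of counts was 1.545% in replicate 2 of DMSO 3D, below the next at 1.627%.

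The DOX effect was larger at 6 days than at 3 days, by the test of the difference itself, for *mt-Nd4l* (0.79 on the log2 scale), *mt-Nd4* (0.66), *mt-Cytb* (0.61), *mt-Co1* (0.55) and *mt-Nd1* (0.42). For *mt-Co1* the difference joins a fall at 3 days to a value near 0 at 6 days, and for the other genes it joins smaller to larger positive values. *mt-Nd1* no longer passed without replicate 2 of DOX 3D (adjusted p = 0.060), replicate 3 of DOX 6D (0.0528) or replicate 4 of DOX 6D (0.0623).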

How the results depend on the processing

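The counts of changed mitochondrial genes kept within 1.5 times of 7 at 3 days and 10 at 6 days under every alternative (5 to 8 and 8 to 11), and no called change turned its direction. Differences that did not pass turned sign in places: the *mt-Nd6* ratio at 3 days (0.14) was −0.0775 on TPM and −0.0596 without replicate 1 of DMSO 3D, and log2 fold changes ran from −0.08 to 0.11 for *mt-Co1* and −0.19 to 0.34 for *mt-Co2* at 6 days, and −0.02 to 0.38 for *mt-Co3* at 3 days. For DOX at 6 against 3 days, where 3 changed, the count was 5 with library totals or no filter, 0 with DESeq2 or limma, and 6 with a length and GC offset (also with the replicate block) or no fold threshold, and 5 with copies added and without replicate 1 of DMSO 6D. For the difference between the effects, where 5 passed, it was 9 with the offset (also with the block), 8 with copies added (also with the block, nuclear library sizes or without replicate 1 of DMSO 6D) and 1 with a 1.2-fold threshold. The median at 3 days was 0.15 with limma. The share of counts rose by 0.231 and 1.57 points on TPM and by 0.0688 with copies at 3 days; the rRNA ratio by 0.749 and 0.271 on TPM. With at least 3 counts required, 5 tRNAs remained in place of 16. Without the fold threshold, the lists had 31 and 19 (RNA processing), 41 and 37 (subunits) and 7 (untailed RNAs, 3 days) calls.

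Replicate numbers did not pair the libraries: correlations of same-numbered deviations ran from −0.433 to 0.178. With the replicate block the counts were 7, 10, 0, 2 and 5, the *mt-Nd6* ratio had exact sign-flip p = 0.875 and 0.25 (smallest possible 0.125), and untailed RNAs had 1 call at 3 days.

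Leaving out each library gave 7 to 7 genes at 3 days, 10 to 11 at 6 days, 0 to 5 for DOX over time and 4 to 6 for the difference. Medians were 0.32 to 0.36 and 0.68 to 0.98, shares 0.111 to 0.159 and 0.660 to 0.820 points, *mt-Nd6* ratios −0.0596 to 0.271 and −0.737 to −0.244, rRNA ratios 0.972 to 1.07 and 0.467 to 0.539, and complex IV to I ratios −1.15 to −1.10 and −1.17 to −1.06. Lists gave 3 to 12 and 7 to 9, 0 to 7 and 10 to 17 (10 without replicate 2 of DOX 6D), and 1 to 3 and 5 to 5 calls. Without replicate 1 of DMSO 6D, log2 fold changes at 6 days were, for example, 1.65 for *mt-Nd2*, 1.14 for *mt-Nd4* and 0.65 for *mt-Nd1*. Those of *mt-Atp6* and *mt-Atp8* were then 0.68 and 1.35. The difference between the effects also passed then for *mt-Atp6* (0.39, edgeR adjusted p = 0.0340). The cause was not tested. At 2 to 14 counts per library over all tRNA genes, differences between groups could not be assessed in these poly(A)-selected libraries.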
